A study of Mus musculus with 31 samples.

Results

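Newly made RNA of mouse embryonic stem cells was compared after 15 and after 10 minutes of labelling with 4-thiouridine (4sU), a uridine analogue that cells build into RNA as it is transcribed and that lets the labelled RNA be pulled out. The comparison used the 8 labelled libraries among the 31 samples of the series: 4 cultures, each sampled at 10 and at 15 minutes and paired by genotype and biological replicate number. The cultures were 2 called WT and 2 called depleted, all of the line DTCM23/49 XY, which carries a conditional Dicer1 gene, grown with serum and LIF on gelatin. Dicer1 encodes the enzyme that cuts microRNA precursors, and 800 nM 4-hydroxytamoxifen removes its function. A treatment length of 8 days is stated for both genotypes, so what the WT cultures received is not clear from the labels. 4sU was added at 200 uM. The unlabelled RNA of the same cultures and times, called preexisting here, gave 8 libraries that served as background.

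A gene is first copied whole, introns included, and the spliceosome then removes the introns and joins the exons. Most introns of mammalian genes are cut out within minutes of being made and are broken down soon after, so RNA caught by a short pulse is rich in introns and RNA caught by a longer pulse holds more finished message. Some introns leave late: detained introns, common in genes for splicing factors, hold a transcript in the nucleus until it is processed. Short genes are also transcribed to their end sooner than long ones. Labelling time therefore bears on the balance of intronic and exonic RNA, on genes of different length, and on RNAs that are never spliced.

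Values are in TPM, transcripts relative to all transcripts of the library. TPM is a level per length that sums to the same total over the exonic and intronic entries of a library together, so each value is a share of its library and not an amount per cell. Sequencing depth is not known from such values. Changes between times are means over cultures of log2(TPM + 1) at 15 minus 10 minutes, a scale that understates changes of low values. Genes were tested with limma within cultures, and p-values measure only the spread between these 4 cultures. With 4 pairs an exact sign-flip permutation test cannot go below p = 0.13. A second, descriptive count is used throughout: features that were higher, or lower, at 15 minutes in all 4 cultures.

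The labels were checked first. Exonic Dicer1 in labelled RNA was 7.83 and 8.07 TPM in WT and 3.52 and 2.35 TPM in depleted cultures at 10 minutes, and 7.34, 9.65, 3.10 and 2.52 TPM in the same order at 15 minutes, with no overlap between genotypes. All 8 embryonic stem cell markers were at 1 TPM or more, and their sum ran from 997 to 1339 TPM at 10 minutes and from 1289 to 1411 TPM at 15 minutes. Of the markers of other cells, 1 of 9 for fibroblasts, 2 of 9 for primitive endoderm, 1 of 7 for trophoblast and 3 of 8 for neural and mesodermal cells reached 1 TPM. Their sums were 2.25 to 6.11, 6.56 to 8.16, 21.2 to 23.8 and 16.9 to 39.8 TPM at 10 minutes, and 2.18 to 6.12, 4.48 to 7.70, 21.4 to 35.1 and 25.2 to 35.1 TPM at 15 minutes. Below 0.5 TPM in every labelled library were the fibroblast markers Col1a1, Col1a2, Col3a1, Dcn, Lum and Pdgfrb. So were Col4a1, Foxa2, Gata6, Sox17 and Sox7 for primitive endoderm. Only Cdx2 and Hand1 of the 7 trophoblast markers were, and only Kdr, Mesp1 and T of the 8 neural and mesodermal ones. The part of these cells in the differences below was not tested, and in bulk RNA fewer cells of a type and less RNA per cell cannot be told apart.

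Introns made up a smaller share of labelled RNA after 15 minutes in every culture. At 10 minutes the intronic share of a library was 17.9% and 18.4% in WT and 22.8% and 23.3% in depleted cultures. At 15 minutes it was 15.5%, 16.7%, 21.2% and 18.5% in the same order. The mean went from 20.6% ± 2.83 to 18.0% ± 2.45 (SD, n = 4), a difference of -2.64 ± 1.48 percentage points (exact two-sided sign-flip permutation p = 0.13, the smallest that 4 pairs allow). The culture differences were -2.37, -1.71, -1.66 and -4.80 points, so the change was largest in depleted replicate 2. By genotype they came to -2.04 ± 0.47 points in WT and -3.23 ± 2.22 points in depleted cells (SD, n = 2 each), a difference between genotypes within the spread of the depleted pair.

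The preexisting RNA of the same cultures held far fewer introns, and its share was also lower at the longer time in 3 of 4 cultures. It went from 5.72% ± 0.96 to 4.99% ± 0.51 (SD, n = 4), with culture differences of 0.23, -1.08, -1.21 and -0.86 points (exact permutation p = 0.25). As a ratio, the mean at 15 minutes was 0.872 of that at 10 minutes in labelled and also in preexisting RNA. The difference in points was larger in labelled RNA by -1.91 ± 1.67 (-2.60, -0.63, -0.45 and -3.94; exact permutation p = 0.13). In an alternative, the exonic sum of each gene was weighted by its total exonic length and the intronic sum by the rest of its length. This is only a rough count of bases, since it ignores which transcript or intron held the signal and leaves out entries without a gene match. The labelled share then went from 77.2% to 74.5% and the preexisting share from 43.7% to 40.7%. The sign of the difference between fractions turned, to 0.33 ± 2.72 points (exact permutation p = 0.875). Whether the intronic share moved more in labelled than in preexisting RNA thus depended on that weighting.

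**Figure D1:**
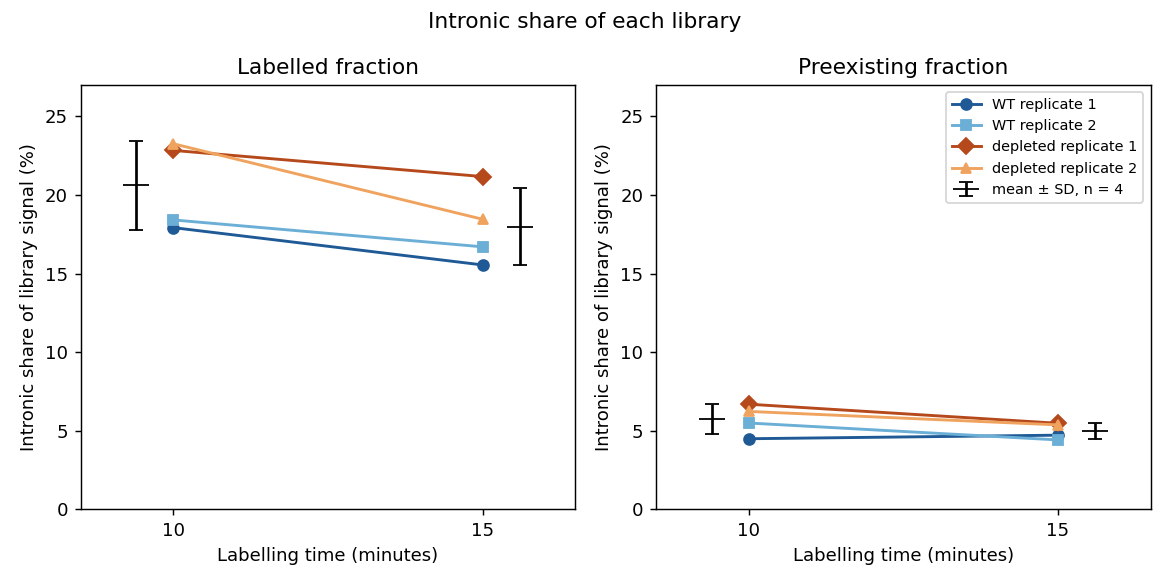
Intronic share of library signal in percent (y axis) at 10 and 15 minutes of labelling (x axis) in the labelled fraction (left) and the preexisting fraction (right), with 1 line per culture and the mean ± SD of 4 cultures beside them. All 4 labelled lines go down, from 17.9 to 23.3% at 10 minutes to 15.5 to 21.2% at 15 minutes, while the preexisting shares stay below 7%.

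Gene by gene, intronic signal was lower at 15 minutes in all 4 cultures for 5019 of 14785 features tested (33.9%) and higher in all 4 for 309 (2.09%). The median change over all features was -0.12, and by culture it was -0.16 and -0.12 in WT and 0.01 and -0.23 in depleted cells. The median of depleted replicate 1 was thus near 0, while those of the other cultures were negative. No single feature passed an adjusted p of 0.05 in either direction (limma, Benjamini-Hochberg over all 14785; 0% called higher and 0% called lower), although 3818 features, or 25.8%, had an unadjusted p under 0.05, and the smallest adjusted p was 0.106. When only the 7093 features with a mean of at least 5 TPM were tested, 659 passed, of which 646 were lower and 13 higher, with a median log2 change of -0.42 among those that fell. Of those 646, 644 were lower in all 4 cultures and 590 were also lower in preexisting RNA.

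These counts are relative to the whole library. The share of intronic features that were lower in all 4 cultures was 11.6%, against 14.9% higher, when intronic values were rescaled to a constant intronic total, and 16.4% against 14.5% when each library was centred on its median change. The median of all intronic features then became 0.03 and 0.01. The split between lower and higher introns thus depended on the shift of the intronic total, and what follows gives genes and lists beside the overall median of -0.12.

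In preexisting RNA, introns had a median change of -0.09, with 16.9% of features lower and 2.73% higher in all 4 cultures and 0 called by limma. The test of labelled against preexisting change called 0 of 14785 introns (0%), with 675 at an unadjusted p under 0.05 and a smallest adjusted p of 0.97.

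The 12 features whose introns were lower in all 4 cultures with the smallest p are given first. Values are in the order WT 1, WT 2, depleted 1, depleted 2. Dhx15, at chr5:52150203-52190514 (mm10), encodes a helicase that takes spliceosomes apart. Its intronic signal was 73.9, 59.6, 116 and 76.8 TPM at 10 minutes and 49.9, 38.4, 78.4 and 46.2 TPM at 15 minutes (log2 change -0.62, SE 0.08). Each culture was lower at 15 minutes, while the ranges of the times overlapped because the cultures differed among themselves. Sf3b1, at chr1:54985169-55027481, a part of the U2 snRNP that binds the branch site, had 38.9, 26.3, 61.8 and 43.3 TPM at 10 minutes and 27.4, 17.3, 39.8 and 26.4 TPM at 15 minutes (log2 change -0.60, SE 0.08). Prpf3, of the U4/U6 snRNP, went from 24.2, 24.4, 31.7 and 35.5 TPM to 17.1, 17.1, 22.6 and 22.1 TPM (log2 change -0.52), and here the groups did not overlap. Eif2s2, the beta subunit of the initiation factor that brings the first tRNA to the ribosome, had the largest intronic signal but one of this group, 121, 85.9, 244 and 204 TPM against 86.6, 60.4, 178 and 141 TPM (log2 change -0.49, SE 0.07).

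Other genes of this group followed the same pattern. Sinhcaf, a subunit of a Sin3 histone deacetylase complex, had 175, 152, 271 and 241 TPM at 10 minutes and 123, 112, 205 and 166 TPM at 15 minutes (log2 change -0.47). Canx, a chaperone of the endoplasmic reticulum, had 54.1, 51.9, 83.3 and 82.1 TPM and then 39.4, 34.6, 52.8 and 46.6 TPM (log2 change -0.62). Actr3, of the Arp2/3 complex that branches actin, had 47.5, 41.9, 83.4 and 76.4 TPM and then 32.2, 29.0, 52.4 and 44.2 TPM (log2 change -0.63). In all of them the depleted cultures started higher than WT and each culture was lower at 15 minutes. The kinase gene Hipk1 (-0.59), the zinc finger gene Zfp326 (-0.57), Gm15886, which is antisense to Hipk1 (-0.56), Gm26625 (-0.60) and Gm17535 (-0.61) completed the 12 of smallest p. Whether counting used strand is not given in the sources used here, so reads of Hipk1 and Gm15886 cannot be told apart. Limma's adjusted p was 0.106 for each of the 12 over all introns, and each passed at 0.047 among introns of at least 5 TPM. In preexisting RNA the change was -0.15 for Dhx15, -0.38 for Sf3b1, -0.60 for Eif2s2 and -0.52 for Canx, while it was 0.03 for Gm15886 and 0.07 for Gm26625.

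Introns that were higher at 15 minutes in all 4 cultures were few, and the 12 of smallest p lay mostly in short genes. Polr1c, at chr17:46243920-46248054, a subunit shared by RNA polymerases I and III, had 12.4, 13.9, 9.08 and 14.2 TPM at 10 minutes and 15.5, 19.9, 14.8 and 19.2 TPM at 15 minutes (log2 change 0.46, SE 0.09), with no overlap. Rpl10a, a protein of the large ribosomal subunit, had 32.4, 21.6, 12.1 and 21.7 TPM and then 35.4, 37.4, 24.8 and 41.1 TPM (log2 change 0.69, SE 0.15), and WT replicate 1 differed least. Lats2, a Hippo pathway kinase, had 70.3, 72.5, 46.4 and 45.0 TPM and then 101, 76.0, 87.5 and 69.0 TPM (log2 change 0.52). Sox15 (0.82), Pusl1 (0.70), Tubb4b (0.53), Pidd1 (0.46), Cln6 (0.44), Etfb (0.43), Gm16096 (0.33) and Gm17111 (1.65) were the others. Each had an adjusted p of 0.106 (limma, all introns), and Polr1c, Rpl10a, Gm17111 and Lats2 passed at 0.047 and Tubb4b and Pidd1 at 0.048 among introns of at least 5 TPM. The 10 coding genes with higher introns had a median length of 4.02 kb and a median of 6.5 introns, and the 10 with lower introns 35.5 kb and 12.5 introns. Of the 11858 coding genes with tested introns, 230 were under 3 kb and 1812 at 3 to 10 kb. Another 3978 were at 10 to 30 kb and 3906 at 30 to 100 kb, so the median of the lower group fell in a common length range.

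**Figure D2:**
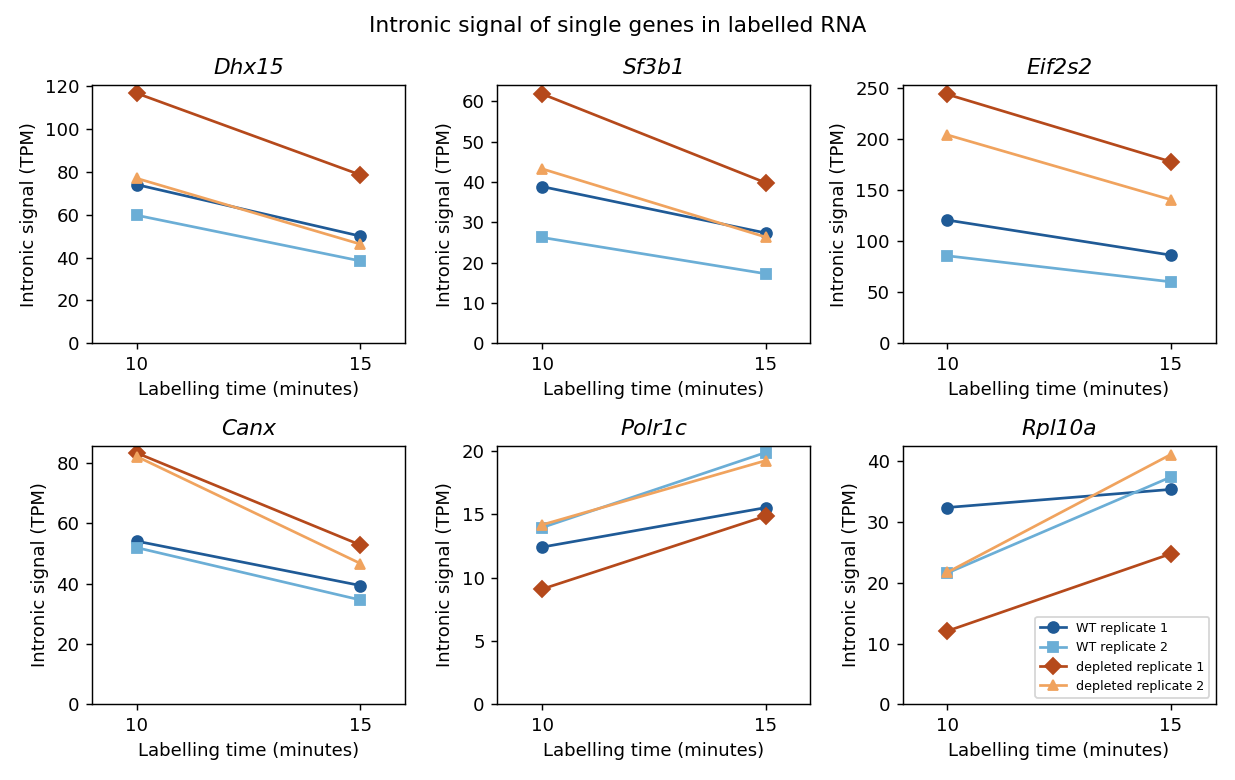
Intronic signal in TPM (y axes, each starting at 0) at 10 and 15 minutes (x axes) for Dhx15, Sf3b1, Eif2s2, Canx, Polr1c and Rpl10a, with 1 line per culture. Every line goes down for the first 4 genes and up for Polr1c and Rpl10a, and the cultures keep most of their order.

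Among introns of at least 5 TPM the change of smallest p was in Dalrd3, at chr9:108569886-108572774 (mm10, + strand), a compact gene whose protein takes part in tRNA methylation. Its intronic signal was 0.94, 0.62, 0.04 and 0.57 TPM at 10 minutes and 16.2, 5.21, 6.40 and 22.8 TPM at 15 minutes (log2 change 2.96, SE 0.28, limma adjusted p = 0.106 over all introns and 0.00503 among those of at least 5 TPM). The signal was not listed for the gene's introns at large but for 2 transcripts with 1 short intron each. Other annotated transcripts hold the same introns, 3 for the first intron and 4 for the second. The entries are thus separate, but the introns are not. These introns are printed from the mm10 genome with the splice dinucleotides in capitals, the first at chr9:108572298-108572392 (95 bases) and the second at chr9:108571675-108571781 (107 bases).
Dalrd3 intron A: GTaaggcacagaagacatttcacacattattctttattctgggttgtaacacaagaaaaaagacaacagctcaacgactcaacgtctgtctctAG
Dalrd3 intron B: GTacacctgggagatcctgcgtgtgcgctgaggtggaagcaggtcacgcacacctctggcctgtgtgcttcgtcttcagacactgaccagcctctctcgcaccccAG

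At 15 minutes the entry for intron A held 15.8 TPM in WT replicate 1 and 21.3 TPM in depleted replicate 2 and was listed at 0 in the other 2 cultures. The entry for intron B held 3.84 TPM in WT replicate 2 and 5.55 TPM in depleted replicate 1 and was listed at 0 in the other 2. Both were listed at 0 in all 4 libraries at 10 minutes. The estimate thus placed the signal on a different intron in different cultures. Exons of 2 annotated transcripts, of Dalrd3 and its neighbour Wdr6, overlap intron A, and no annotated exon overlaps intron B. In preexisting RNA the gene totals were 0.50, 0, 0 and 0 TPM at 10 minutes and 1.94, 11.2, 4.10 and 17.7 TPM at 15 minutes, also higher in every culture. There, at 15 minutes, the entry for intron A held 10.9 TPM in WT replicate 2 and 17.2 TPM in depleted replicate 2, and that for intron B 2.68 TPM in depleted replicate 1. Both were listed at 0 in WT replicate 1, so the entries that held signal were not the same in both fractions.

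Exonic signal changed little overall. The median over 23933 features was 0.01, and 2074 were higher (8.67%) and 2314 lower (9.67%) in all 4 cultures. One feature passed as higher (0.00418%) and 0 as lower (0%) in limma over all features, and 2492, or 10.4%, had an unadjusted p under 0.05. In preexisting RNA 7.81% were higher and 3.95% lower in all 4 cultures.

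That feature was Mir1954, a microRNA gene of 86 bases at chr2:32652329-32652414 (+ strand). Its mature sequence is printed from RefSeq (GRCm38.p6), with the seed, bases 2 to 8, in capitals, since the whole exonic result rests on this short gene.
mmu-miR-1954: aCUGCAGAgugagacccuguu
Mir1954 was listed at 0 in all 4 labelled libraries at 10 minutes and in all 8 preexisting libraries, and at 19.4, 23.1, 31.0 and 26.2 TPM at 15 minutes (log2 change 4.68 on the TPM + 1 scale, SE 0.15, limma adjusted p = 0.00095). No fold can be given against a listed 0. Without depleted replicate 1 or depleted replicate 2 the adjusted p of Mir1954 was 0.093 and 0.144. The limma test of labelled against preexisting change called Mir1954 alone of 23933 features (0.00418%, adjusted p = 0.0138), where 820 had an unadjusted p under 0.05. Since Mir1954 was listed at 0 in every preexisting library, that test had the same estimate and adds no independent support. Its call was lost with a filter at 5 TPM and without any one culture. The smallest limma adjusted p of any feature was 0.053 with that filter and 0.188 to 0.367 without a culture. The first 40 bases of the hairpin are single in the genome, since each 20-base stretch was found once on either strand. Bases 41 to 60 occurred 16 times and bases 61 to 80 occurred 43307 times, and the mature sequence 2 times. In all, 52 exonic features were listed at 0 in every labelled library at 10 minutes and above 0 in every one at 15 minutes, against 11 the other way, and in preexisting RNA the counts were 94 and 4. The second highest of the 52, Gm25889, had a mean of 3.21 TPM at 15 minutes.

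Of the 12 exonic features lower at 15 minutes with the smallest p, 7 were small RNA genes. Gm23468, an snRNA gene, was at 12.9, 7.23, 4.40 and 8.67 TPM at 10 minutes and listed at 0 in all 4 libraries at 15 minutes (limma adjusted p = 0.097), while in preexisting RNA its change was 0.76. Gm26243, also an snRNA gene, had 23.4, 26.8, 40.2 and 32.7 TPM and then 6.45, 3.80, 22.5 and 17.2 TPM (log2 change -1.49, limma adjusted p = 0.478), with no overlap. The snRNA gene Gm25245 (-2.41), the snoRNA genes Gm22362 (-1.02) and Gm25544 (-0.65) and the microRNA model Gm44493 (-0.80), with the snoRNA gene Gm23639 (-0.88), were lower in all 4 cultures as well. Coding or other long models in this group were Gm10800 (-0.99), 6720482G16Rik (-0.75), Gm43667 (-0.71), 2610024D14Rik (-0.70) and Tvp23b (-0.67), all at an adjusted p of 0.478. Small RNA genes come in many near-identical copies, and how reads were split among them is uncertain. Of 3503 snRNA, snoRNA, scaRNA and miscellaneous RNA genes in the table, 758 were tested, with a median of -0.11, and 74 were lower and 17 higher in all 4 cultures. Their share of lower genes was thus near the 9.67% of all exonic features, and their share of higher genes was below the 8.67% of all. The classes within them differed, with a median of -0.26 for snRNA genes and 0.09 for snoRNA and scaRNA genes. Of 579 microRNA precursors, which that count leaves out, 24 were higher (4.15%) and 18 lower (3.11%) in all 4 cultures, with a median of 0.11. Both shares were below those of all exonic features.

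The ratio of intronic to exonic signal within a library is touched by the scaling of that library only through the added 1 TPM. It was lower at 15 minutes in all 4 cultures for 2893 of 11860 genes (24.4%) and higher in all 4 for 201 (1.69%). The median change was -0.18, and every culture had a negative median (-0.11, -0.20, -0.10 and -0.30). It was -0.21 with a pseudocount of 0.1 and -0.11 with one of 5. In limma 0% passed in either direction, with 1860 genes, or 15.7%, at an unadjusted p under 0.05 and a smallest adjusted p of 0.198. Preexisting RNA had a median of -0.20, with 17.2% of genes lower in all 4 cultures and 1.95% higher.

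Zfp414, a zinc finger gene, had a ratio change of -1.81, with intronic values of 32.8, 22.5, 9.21 and 42.3 TPM at 10 minutes and 8.03, 10.0, 7.47 and 9.20 TPM at 15 minutes, and depleted replicate 1 was low at both times. Taf10, of the general transcription factor TFIID, had a ratio change of -1.25, made of lower introns (5.42, 6.57, 6.95 and 7.10 against 3.54, 2.08, 5.68 and 4.55 TPM) and of exons that were higher in all 4 cultures, least so in WT replicate 2 (25.3, 28, 10.3 and 14.7 against 31.7, 29.8, 26.4 and 25.0 TPM). Vps51, of a complex that tethers vesicles to the Golgi, had a change of -0.99 that came from its exons, at 7.51, 7.64, 5.93 and 4.37 TPM and then 14.1, 13.3, 21.1 and 14.2 TPM. These 3 genes had limma adjusted p-values of 0.198, 0.198 and 0.215, and passed at 0.042, 0.042 and 0.048 among genes of at least 5 TPM. Psap (-0.77), Babam2 (-0.77), Fmr1nb (-1.06), Hspb11 (-1.18) and 5 more followed at 0.295. Among the 12 genes of smallest p the other way were Dalrd3 (2.15), Sept4 (1.07), Lxn (0.78) and Mecom (0.73), at adjusted p-values of 0.198 for Dalrd3 and 0.295 for the others (limma), and Dalrd3 passed at 0.042 among genes of at least 5 TPM. For Mecom, a transcription factor gene of 597 kb, introns hardly moved (3.81, 4.22, 6.51 and 6.68 against 3.76, 4.29, 6.84 and 6.67 TPM) while exons were lower in each culture (1.21, 0.81, 4.97 and 5.83 against 0.66, 0.14, 2.64 and 2.28 TPM). Of the 4312 genes with both kinds of signal whose introns were lower in all 4 cultures, 188 had exons that were higher and 646 exons that were lower in all 4.

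Taken over the 4 cultures, median changes were highest in the shortest coding genes, for exons and for introns. Among coding genes under 3 kb, exonic signal had a median change of 0.26. Of these 612 genes 22.5% were higher in all 4 cultures, against 8.67% of all features and 11.4% of spliced coding genes. The median was 0.16 at 3 to 10 kb, 0.06 at 10 to 30 kb and -0.02 at 30 to 100 kb. By culture, the median under 3 kb was 0.51 and 0.41 in depleted cells and 0.07 and 0.04 in WT. WT replicate 2 did not share this order, with 0.07, 0.06, 0.07 and 0.07 in the bins from 3 to 300 kb. In preexisting RNA the exonic medians were 0.16, 0.11, 0.08, 0.06, 0.09 and 0.09 from the shortest bin to the longest. For introns the median was 0.03 under 3 kb (n = 230), -0.04 at 3 to 10 kb, -0.13 at 10 to 30 kb, -0.18 at 30 to 100 kb, -0.14 at 100 to 300 kb and -0.09 above 300 kb. The share of introns lower in all 4 cultures went from 6.96% under 3 kb to 48.1% at 30 to 100 kb and 26.8% above 300 kb. In WT replicate 1 and depleted replicate 1 the intronic medians above 300 kb (-0.12 and 0.05) were not below those under 3 kb (-0.13 and 0.04). In preexisting RNA the intronic medians of the same bins ran from 0.03 to -0.12 and -0.07. Whether this differed between genotypes was not tested, and long introns have low TPM, where the log2 scale shrinks changes.

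**Figure D3:**
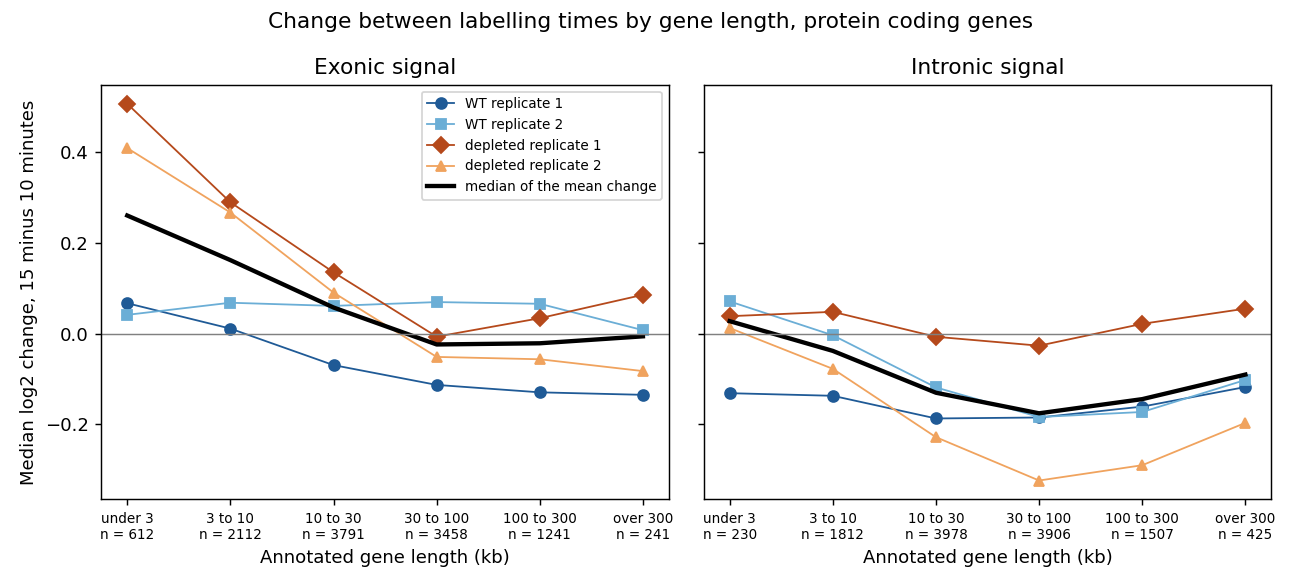
Median log2 change at 15 minus 10 minutes (y axis) of coding genes in 6 bins of annotated gene length (x axis, kb, with the number of genes), for exonic signal (left) and intronic signal (right), with 1 line per culture and a black line for the median of the mean change. Exons of genes under 3 kb sit at 0.51 and 0.41 in depleted and 0.07 and 0.04 in WT cultures, and introns are lowest at 30 to 100 kb, where depleted replicate 1 is at -0.03 and depleted replicate 2 at -0.32.

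Genes were also ranked by the ratio of their level in preexisting RNA to that in labelled RNA, an indication of how long their message lasts. Each level is a share of its own library, so the ratio only ranks genes against each other. It does not give the part of a gene's RNA that was new. The ranking was taken from the other genotype so that it did not use the same libraries. Introns of the fifth of genes with the lowest ratio had medians of -0.27 and -0.27 in WT and -0.10 and -0.42 in depleted cultures. In the fifth with the highest ratio the medians were -0.08 and -0.05 in WT and 0.04 and -0.14 in depleted cultures. All 4 cultures had lower introns in the first of these groups than in the second.

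Gene lists were read against these medians and against introns of higher level. Over the 7093 introns of at least 5 TPM in labelled RNA the median was -0.18, and 42.7% were lower in all 4 cultures. Many list members lay at that level: 28 of 33 spliceosome genes, 27 of 28 detained-intron genes and 198 of 304 zinc finger genes. In preexisting RNA, the background, the intronic medians of the lists described below were negative as well. They were -0.17 for SR genes, -0.15 for spliceosome genes and -0.27 for detained-intron genes, beside -0.09 over all introns. Zinc finger genes had -0.13 and pluripotency factors -0.17. The values that follow are for labelled RNA. No member of any list passed limma over all features, exonic or intronic, with the filter at 1 TPM. All 10 genes for SR proteins, which bind exons and recruit the spliceosome, had negative intronic changes, where 21.2% of all introns had positive ones. Their median was -0.34, and it was -0.14 once introns were rescaled and -0.22 without depleted replicate 1. Only 3 of the 10 were lower in all 4 cultures, a share below the 33.9% of all introns. Srsf11 introns were at 149, 135, 218 and 169 TPM and then 134, 105, 168 and 108 TPM (log2 change -0.38). Srsf3 introns were at 184, 142, 231 and 204 TPM and then 150, 125, 183 and 155 TPM (-0.30). Srsf2, of which intronic entries hold much of the signal, had 1484, 1083, 2779 and 2638 TPM and then 1221, 1244, 1155 and 1519 TPM (-0.54), lower in 3 of 4 cultures and by far the most in the depleted ones. Exons of the SR genes had a median of -0.04, which was -0.12 without WT replicate 1 and 0.07 without depleted replicate 1.

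Of 33 spliceosome and intron-definition genes 32 had negative intronic changes, with a median of -0.19 that was -0.03 after rescaling. Lower in all 4 cultures were 16 of them, against 33.9% of all introns and 42.7% of those of at least 5 TPM. Among introns of at least 5 TPM 5 of 28 fell and 0 rose, against 9.11% of all introns that fell at that filter. The exons of this list had a median of 0.10, with Dhx15 lower in all 4 cultures (157, 133, 219 and 180 against 121, 129, 140 and 123 TPM) and Snrpg, a core Sm protein, higher in all 4 (269, 193, 118 and 153 against 484, 207, 292 and 186 TPM). Detained-intron genes, many of them splicing regulators, had a median of -0.25 (27 of 28 negative, -0.05 after rescaling). Of these genes 16 were lower in all 4 cultures, against 33.9% of all introns and 42.7% of those of at least 5 TPM. Rbm39 introns were at 450, 335, 591 and 501 TPM and then 387, 277, 548 and 383 TPM (-0.25), and Luc7l3 introns at 144, 145, 152 and 162 TPM and then 104, 125, 149 and 122 TPM (-0.28). Both had lower introns at 15 minutes in every culture.

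KRAB and other zinc finger genes, many of which repress retroelements, form a large family with short-lived messages. Of 304 with tested introns 269 had negative changes, with a median of -0.20 (-0.03 after rescaling). This lies beside -0.12 over all introns and -0.18 over those of at least 5 TPM. Lower in all 4 cultures were 174, against 33.9% of all introns and 42.7% of those of at least 5 TPM. Among introns of at least 5 TPM 18 of 198 fell, a share near the 9.11% of all introns at that filter. Zfp600 introns were at 308, 265, 418 and 377 TPM and then 263, 203, 348 and 250 TPM (-0.36), and Zfp979 introns at 275, 236, 353 and 340 TPM and then 241, 179, 309 and 230 TPM (-0.34). Zfp600, Zfp979 and Rex2 below have near-identical copies, and how reads were split among these is uncertain. Exons of the family had a median of -0.05. Introns of pluripotency factors had a median of -0.17, which turned to 0.02 after rescaling, with 6 of 21 lower in all 4 cultures, against 33.9% of all introns. Nanog introns were at 24.2, 25.2, 54.1 and 54.2 TPM and then 24.1, 20.6, 44.4 and 40.4 TPM (-0.25), and Rex2 introns at 107, 94.6, 154 and 152 TPM and then 95.5, 71.4, 123 and 98.7 TPM (-0.37). Their exons had a median of 0.07, with Dppa5a at 296, 250, 213 and 252 TPM and then 386, 258, 412 and 392 TPM (0.50).

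Other lists with at least 9 tested introns lay near these values. The median was -0.28 for immediate early genes (9 tested), -0.24 for heat shock genes (11), -0.22 for very long genes (23, all negative), -0.20 for proteasome subunits (36), the RNA exosome (20) and elongation and 3′ end factors (27), -0.19 for the microRNA machinery (12), -0.16 for translation factors (61), -0.14 for microRNA host transcripts (9), -0.13 for nuclear long noncoding RNAs (15), -0.12 for p53 targets (18), -0.09 for glycolysis and cytoskeleton genes (20) and -0.08 for factors and targets of nonsense-mediated decay (18). After rescaling the medians of microRNA host transcripts, translation factors, nuclear long noncoding RNAs, p53 targets, glycolysis and cytoskeleton genes and decay factors and targets were above 0, and the others stayed below it. Leaving out 1 culture moved several of these medians by more than 1.5 times. Without WT replicate 1 the median was -0.12 for heat shock genes, 0.02 for microRNA host transcripts, -0.06 for nuclear long noncoding RNAs and -0.0041 for glycolysis and cytoskeleton genes. Without depleted replicate 1 it was -0.19 for nuclear long noncoding RNAs, -0.06 for microRNA host transcripts and -0.15 for decay factors and targets. Without depleted replicate 2 it was -0.15 for very long genes, -0.13 for the microRNA machinery, and -0.08 for both nuclear long noncoding RNAs and microRNA host transcripts, while decay factors and targets had -0.12 without WT replicate 2. In preexisting RNA the intronic medians of these lists ran from -0.25 to -0.07. Heat shock genes, translation factors, glycolysis and cytoskeleton genes and decay factors and targets had lower medians there than in labelled RNA. They were at -0.25, -0.21, -0.14 and -0.20, and the other lists had higher medians there. In labelled RNA Jarid2, a Polycomb cofactor, had intronic values of 189, 112, 226 and 166 TPM and then 137, 85.7, 215 and 128 TPM (-0.32). Xrn2, the exonuclease that ends transcription by polymerase II, had 28.9, 20.8, 52.8 and 41.7 TPM and then 23.9, 14.7, 44.7 and 23.9 TPM (-0.44). Tra2b, a splicing activator with a poison exon, had 142, 107, 231 and 174 TPM and then 118, 78.0, 164 and 116 TPM (-0.45). Xrn2 and Tra2b passed among introns of at least 5 TPM (limma adjusted p = 0.047 for each).

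The highest exonic medians of any list in labelled RNA were those of ribosomal protein genes and respiratory chain subunits, which had 0.19 and 0.13 in preexisting RNA. Of 82 cytosolic ribosomal protein genes 81 had positive changes, with a median of 0.47. WT replicate 2 had a median of -0.06 against 0.45, 0.81 and 0.70 in the others. Of the 82 genes 14 were higher in all 4 cultures, against 8.67% of all features and 11.4% of spliced coding genes. Among coding genes that share was 22.5% under 3 kb and 18.7% at 3 to 10 kb. Rpl41, which encodes the smallest of these proteins, had 2271, 2183, 1370 and 1540 TPM at 10 minutes and 4363, 2111, 2645 and 2663 TPM at 15 minutes (log2 change 0.66, SE 0.19). Rps27 had a change of 0.56, and Rpl10 and Rpl31 of 0.18 and 0.12, each of the last pair with 2 cultures higher and 2 lower. Introns of ribosomal protein genes had a median of -0.01, or 0.18 after rescaling, with 39 positive and 41 negative. Respiratory chain and ATP synthase subunits had an exonic median of 0.45 (75 of 79 positive, 25 higher in all 4 cultures against 8.67% of all features), again with WT replicate 2 at -0.01. Their introns had a median of -0.05, or 0.11 after rescaling. Atp5h had 426, 334, 219 and 308 TPM and then 560, 386, 465 and 455 TPM (0.56), higher in each culture, while Cox7c introns had 96.6, 64.7, 110 and 140 TPM and then 67.4, 59.6, 68.1 and 103 TPM (-0.44). Exonic medians were smaller for proteasome subunits (0.15, with 7 of 37 higher and 1 lower in all 4 cultures) and translation factors (0.09, with 9 of 65 higher and 4 lower). Of all features 8.67% were higher and 9.67% lower in all 4. The medians of these lists were 0.09 without depleted replicate 2 and 0.06 without depleted replicate 1. In preexisting RNA both medians were 0.11.

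Small nucleolar RNA host genes, which carry snoRNAs in their introns, had an exonic median of 0.31, with 8 of 17 higher in all 4 cultures, against 8.67% of all features. Their intronic median was -0.05, or 0.15 after rescaling and 0.04 without depleted replicate 1. Eef1b2 had 901, 822, 552 and 607 TPM and then 1348, 846, 771 and 968 TPM (0.44). The noncoding host Gas5 did not share this, with 2119, 2118, 1913 and 2447 TPM and then 2664, 2479, 1565 and 2353 TPM (0.05). Glycolysis and cytoskeleton genes had a median of 0.24 that came from the depleted cultures (0.52 and 0.57, against -0.05 and 0.00 in WT) and was 0.15 without depleted replicate 2. Gapdh shows the split, with 5568 and 5248 TPM in WT and 3037 and 2897 TPM in depleted cultures at 10 minutes, and 4870, 5163, 4496 and 5303 TPM at 15 minutes. Histone genes, made in S phase and mostly intronless, had a median of 0.25, which was 0.52 without WT replicate 1 and 0.04 without depleted replicate 1. It ran from -0.45 in the first of these cultures to 0.87 in the second. Of the 65 genes in this list 5 had intronic entries, with an intronic median of -0.30. Hist1h2bn had 59.1, 80.2, 22.9 and 36.7 TPM and then 40.3, 86.6, 43.2 and 73.5 TPM. Immediate early genes, which respond to stimuli within minutes, had a median of 0.18 over 15 genes, with culture medians of -0.13, 0.21, 0.49 and 0.24. It was 0.30 without WT replicate 1. Of the 15 genes 2 were higher in all 4 cultures, against 8.67% of all features and 11.4% of spliced coding genes. Members were Dusp1 (24.4, 37.6, 37.0 and 44.6 against 20.5, 45.5, 64.1 and 74.4 TPM) and Egr1, which differed in the other direction (12.9, 53.7, 21.2 and 55.8 against 8.10, 31.5, 23.5 and 32.0 TPM). The exonic medians named here kept their sign when exons were rescaled to a constant exonic total. In preexisting RNA exonic medians were -0.12 for small nucleolar RNA host genes and 0.17 for glycolysis and cytoskeleton genes. Histone genes had 0.40 there and immediate early genes 0.09.

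**Figure D4:**
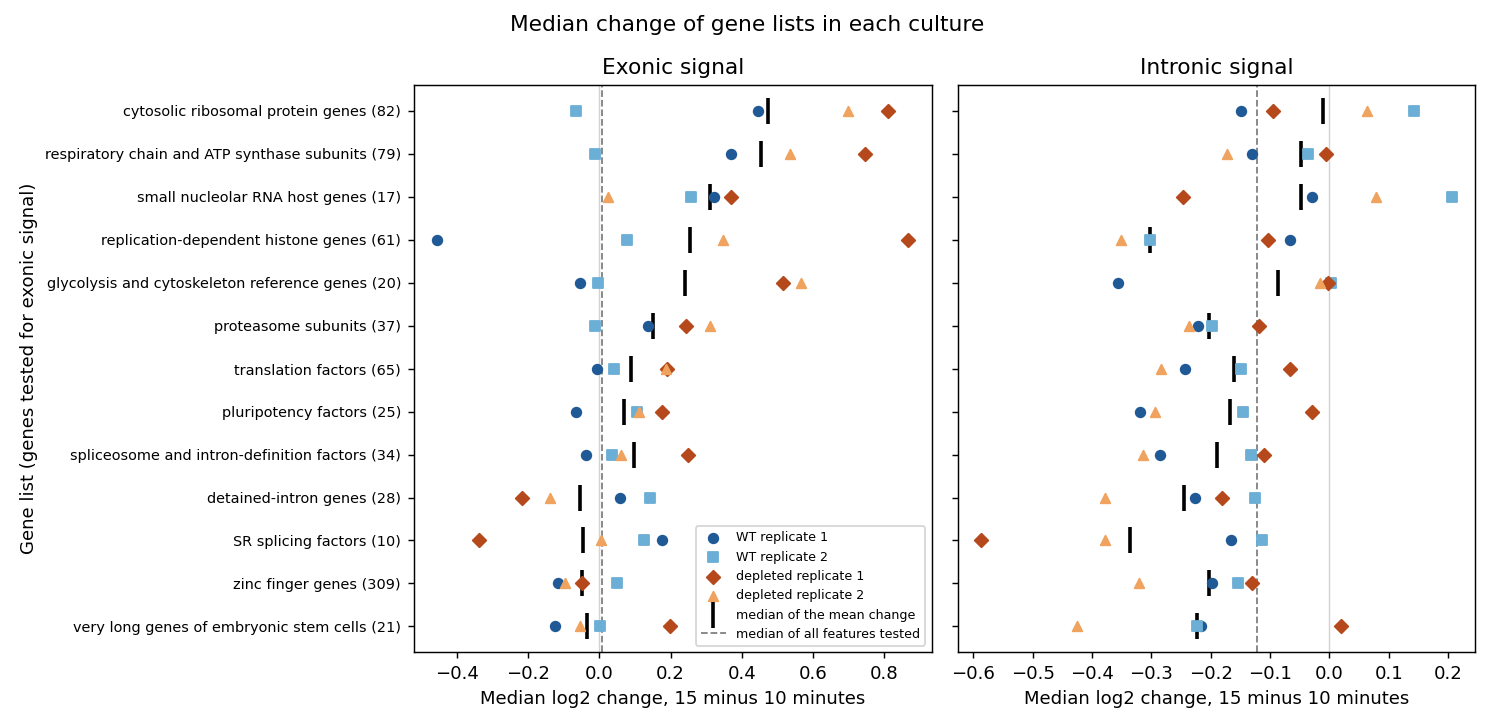
Median log2 change at 15 minus 10 minutes (x axes) of 13 gene lists (y axis, with the number of genes tested for exonic signal), for exonic signal (left) and intronic signal (right), with 1 symbol per culture, a black bar for the median of the mean change and a dashed line for all features tested. Exons of ribosomal protein genes lie at 0.45, 0.81 and 0.70 in 3 cultures and at -0.06 in WT replicate 2, and the intronic bars of 12 lists lie between -0.34 and -0.05, with ribosomal protein genes at -0.01. After intronic values are rescaled, the intronic medians of 6 of these lists are above 0.

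Classes of features were compared as shares of a library. Exons of spliced coding genes went from 45.4% ± 1.19 to 46.8% ± 1.27 (SD, n = 4) and were higher in all 4 cultures, as were microRNA precursors, at 0.834% ± 0.081 and then 0.920% ± 0.120. Introns of coding genes went from 17.9% ± 2.55 to 15.4% ± 2.28 and were lower in all 4 cultures, and 4310 of 11858 (36.3%) single coding genes had introns that were lower in all 4, against 33.9% of all introns. Introns of long noncoding RNA genes went from 1.75% ± 0.20 to 1.61% ± 0.08, and 23.2% of these genes were lower in all 4. Some classes without introns of their own were lower in all 4 cultures too: intronless coding genes other than histones went from 1.57% ± 0.18 to 1.35% ± 0.09, snRNA genes from 0.322% ± 0.068 to 0.251% ± 0.068, and sense intronic RNAs, noncoding models that lie inside introns of other genes, from 0.0481% ± 0.0071 to 0.0406% ± 0.0075. Of 88 sense intronic RNAs 28.4% were lower in all 4 cultures, and of 620 single-exon models awaiting experimental support (TEC) 24.7%, against 9.67% of all exonic features. The lower share of intronless coding genes came mostly from depleted replicate 1: by culture its log2 change was -0.12, -0.01, -0.56 and -0.16, and the mean of -0.21 was -0.09 without that culture. Single genes of this class did not follow it, with a median of 0.07, and 33 of 211 higher and 16 lower in all 4 cultures. The higher share of microRNA precursors, 0.14 in log2, was 0.08 without depleted replicate 1, and the lower share of introns of long noncoding RNA genes, -0.11, was -0.06 without depleted replicate 2.

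Processed pseudogenes, which are near copies of spliced messages, went from 17.5% ± 2.99 to 19.8% ± 2.31 and were higher in 3 of 4 cultures. Of the 18 classes 8 had the same direction in all 4 cultures, and 0 passed the exact permutation test after adjustment, where the smallest adjusted p was 0.281 at 4 pairs. The share of snRNA genes in labelled RNA had log2 changes of -0.81, -0.26, -0.04 and -0.42 by culture, and their mean of -0.38 was -0.24 without WT replicate 1. In preexisting RNA the changes were -1.89, -0.56, 0.25 and -1.04, with a mean of -0.81, so the cultures differed in sign. Taken as a share of exonic entries alone, spliced coding genes had a change of -0.0043 in log2, so the higher share of their exons rested on the smaller intronic share.

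**Figure D5:**
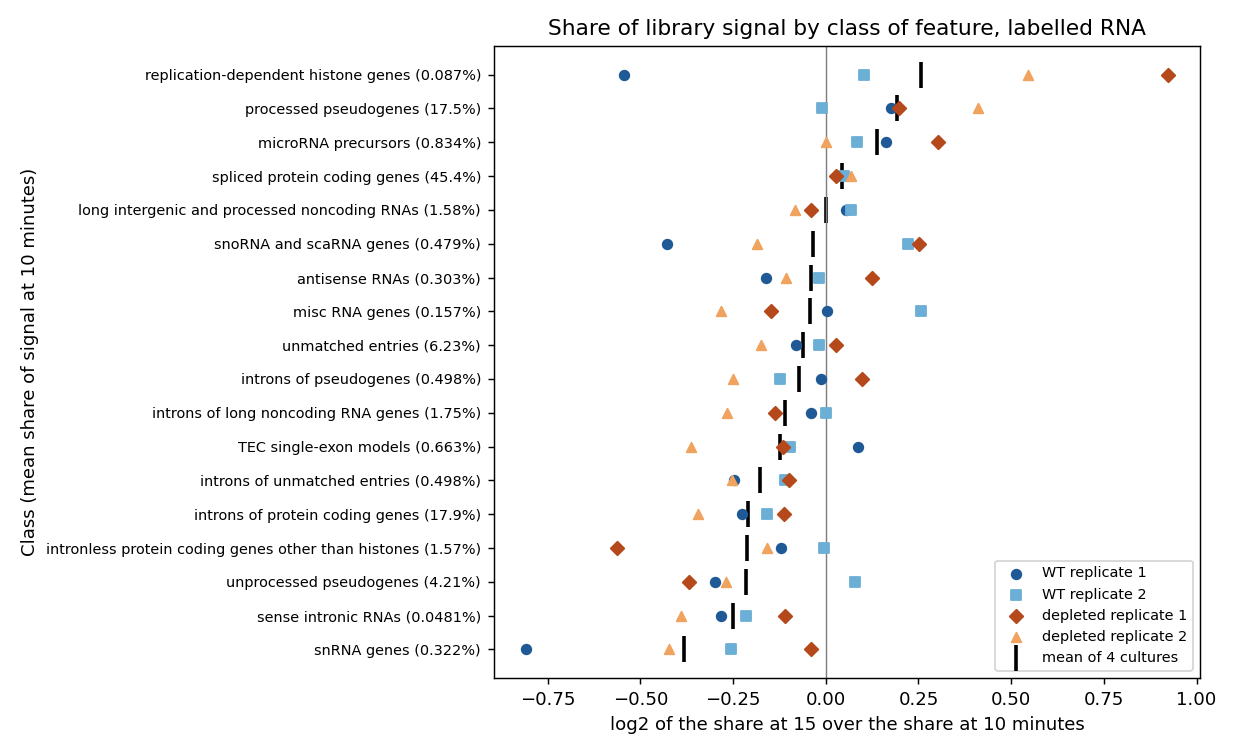
Log2 of the share of library signal at 15 over that at 10 minutes (x axis) for 18 classes of features (y axis, with the mean share at 10 minutes in percent), with 1 symbol per culture and a black bar for the mean of 4 cultures. Introns of coding genes lie at -0.21 and snRNA genes at -0.38, with every culture below 0, and spliced coding genes lie at 0.04, with every culture above 0.

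The effect of labelling time was compared between genotypes by an interaction term. For exons 0% of 23933 features passed (limma; smallest adjusted p 0.078), with 2167 at an unadjusted p under 0.05, or 9.05%. For introns 1 of 14785 passed (0.00676%), with 718 at an unadjusted p under 0.05. This was Trav12d-2, a T cell receptor variable segment with 1 intron, at 1.78 and 1.42 TPM in WT and listed at 0 in both depleted cultures at 10 minutes, and at 0 in both WT and 1.98 and 2.91 TPM in depleted cultures at 15 minutes (limma adjusted p = 0.0054). The exonic features of smallest p were likewise listed at 0 in several libraries. Use1, a vesicle fusion protein, was chosen after its values were seen as the gene of next smallest p, and its introns were at 5.28, 7.25, 2.5 and 1.10 TPM and then 5.40, 6.03, 11.6 and 8.35 TPM (adjusted p = 0.093). Among introns of at least 5 TPM 12 passed, 5 with a more positive and 7 with a more negative change in depleted cells.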

How the data were processed

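Deposited values of RNA signal in labelled and preexisting RNA were used. The authors named them TPM, but each column sums to 10000000, so 10 units make 1 TPM and the deposited signal was divided by 10. Per the labels' protocols and the submitters' processing notes, STAR 2.5.0 served to discard ribosomal reads and to align what remained to intron and exon sequences of mm10, and RSEM estimated the levels; the annotation and the use of strand are not given in the sources used here. The table holds 121429 exonic and 91702 intronic entries, of which 110366 and 89935 matched GENCODE M21 and were added up by gene. Entries without a match (5.97 to 7.22% of labelled signal) stayed in the tests but are not named. RSEM can list a gene at 0 where an estimate failed, so listed zeros carry no fold. The depth of the libraries is unknown, and no counting interval is given.

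Features averaging 1 TPM or more in the 8 labelled libraries were tested with limma 3.58.1 (trend, R 4.3.3) on log2(TPM + 1) with culture as a block, which leaves 3 residual degrees of freedom; p-values are two-sided and adjusted by Benjamini and Hochberg at 0.05. Shares were compared with exact sign-flip permutation tests over 4 pairs. The pairing is by the labels' genotype and biological replicate number, and after removal of group means the libraries of a pair correlated at 0.27 (WT) and 0.13 (depleted) over exonic and 0.59 and 0.37 over intronic features. The test was tried on simulated data for these designs: with 200 changed features it recovered 81.5% of 4-fold changes, a log2 of 2, over 23933 exonic features and 84.0% of 2-fold changes, a log2 of 1, over 14785 intronic features, and 0% of exonic changes of log2 1.

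Named genes were the 12 of smallest p in each direction with the same direction in all 4 cultures and at least 5 TPM at the higher time, or those that passed, and up to 4 members with the highest exonic level of each of 29 gene lists; list members shown were picked among these. The list of mitochondrial genome genes is not analysed here. The comparison and lists were chosen with earlier results of these data known. Alternatives changed the pseudocount, the filter, the scaling, the libraries in the fit and the block, and left out each culture in turn. Python 3.11.15, numpy 2.4.6, pandas 2.3.3 and matplotlib 3.10.9 were used.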

Additional observations from a re-analysis of the deposited data

Results flagged for a closer look

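In 68 sets of 4 culture differences, 2 held a culture far from the other 3, where chance gives about 1 in 20. WT replicate 1 stood apart for the introns of glycolysis and cytoskeleton genes, with a median log2 change of -0.36, and for the exons of elongation and 3′ end factors, with -0.10.

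Some of these 68 sets moved in opposite directions in the 2 genotypes, both cultures of each on one side of 0. With 2 cultures per genotype such a split of signs often arises by chance among many sets, and these differences were not tested. Depleted minus WT, the median exonic log2 change differed by 0.57 in glycolysis and cytoskeleton genes, by -0.28 in detained-intron genes and by -0.24 in microRNA host transcripts. The log2 share of miscellaneous RNA genes differed by -0.34 and that of long intergenic and processed noncoding RNAs by -0.12.

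For the introns of Trav12d-2 the difference between genotypes was tested by limma's interaction term, with a log2 difference of 3.15 (adjusted p = 0.0054). Its signal was listed at 0 in 4 of 8 labelled libraries and did not exceed 2.91 TPM.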

How the results depend on the processing

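With 4 cultures, limma's gene calls were few and moved with the settings. The block and the libraries in the fit cannot move a median, since they leave the mean changes as they are. The scaling did move the intronic median, from -0.12 to 0.03 when rescaled and 0.01 when centred. Introns lower in all 4 cultures went from 33.9% to 11.6% and 16.4% with these settings. The exonic count of 1 became 3 with all 16 libraries in 1 fit, 3 with no replicate block and 2 with a pseudocount of 0.1, and 0 to 3 when a culture was left out (0 without depleted replicate 1 or 2). Gm23468 passed in the first 3 of these settings (adjusted p = 0.028, 0.013 and 0.031). The intronic count of 0 became 2 with all 16 libraries, 659 with a filter at 5 TPM and 0 to 1 without a culture, and with no replicate block it was 0. The count for the intronic to exonic ratio, 0, became 4 with a filter at 5 TPM and 0 to 1 without a culture. For the genotype interaction the exonic count of 0 became 13 with no replicate block, and the intronic count of 1 became 12 with a filter at 5 TPM. For the fraction contrast the exonic count of 1 became 0 with a filter at 5 TPM and 0 without any one culture, and the intronic count of 0 became 0 to 1. The intronic share difference of -2.64 points ranged from -1.92 to -2.96 without a culture (exact permutation p = 0.25, the smallest that 3 pairs allow), and its excess over preexisting RNA from -1.23 to -2.39 points. That excess became 0.33 points when weighted by length, an alternative chosen after the data were seen, as were 2 others on genes with both kinds of entry (-2.29) and without the 50 highest genes (-2.46). Classes with the same direction in all cultures numbered 4, not 8, with exonic entries alone as the total, where spliced coding genes turned to -0.0043, and 8 to 11 without a culture. Whether depth limits these values is unknown.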
